A study of Mus musculus with 5 samples.

Results

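The 10 genes described here were chosen by symbol, from 46078 genes measured. They are the transcription factor gene Hsf1, the HSP70 genes Hspa1a, Hspa1b and Hspa8, the HSP90 gene Hsp90aa1, the HSP110 gene Hsph1, the J-domain gene Dnajb1, the small heat shock protein gene Hspb1, and Cirbp and Rbm3, whose RNA-binding proteins are induced by mild cold. RNA was sequenced from cultured neural stem and precursor cells (NPCs) of the subventricular zone, the stem cell niche beside the lateral ventricles, which served the study as a forebrain control. All cells were labelled as C57BL/6, female, 5 to 8 weeks of age and without mutation, and all were grown on poly-D-lysine-coated plates and given PBS as a sham exposure. The study's methods give an older age range for the mice of these cells than the labels, and which applies is not known. RNA was taken 1 h after PBS in 2 libraries (replicates 1 and 2) and 8 h after PBS in 3 libraries (replicates 13, 14 and 15). The study counted 1 animal as 1 replicate of these cells. By that definition the spread given below is between cultures of separate animals, which could not be checked here. No library without PBS, at another temperature or before PBS entered the comparison, which therefore has time as its only labelled contrast.

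The heat shock response is driven by HSF1, a factor that is held inactive by chaperones and binds heat shock elements, inverted repeats of the motif GAA, once unfolded proteins draw the chaperones away. Its targets encode HSP70 and HSP90, which fold client proteins with ATP, J-domain proteins that deliver clients to HSP70, HSP110 proteins that exchange its nucleotide, and small heat shock proteins that hold unfolded proteins. CIRBP and RBM3 belong to another branch, in which a modest fall of temperature raises small RNA-binding proteins that act on splicing, RNA stability and translation, and RBM3 is known in brain for its part in synapse protection.

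Between 13681 and 13967 genes reached 1 TPM in a library (TPM is a gene's share of all transcripts, with equal totals in all libraries). Coverage divided by FPKM, a measure that scales with depth, was between 5.58 and 7.18, and the columns of a partial count table summed to 13988166 to 18572154 counts. In 3 of 5 libraries the data went against the female label. Both 1 h libraries and 8 h replicate 14 had Xist, the RNA of the inactive X chromosome, at 0.0285 to 0.0611 TPM and 4 Y-linked genes at a summed 137.6 to 180.9 TPM. In 8 h replicates 13 and 15, Xist was at 165.3 and 199.7 TPM and the Y-linked sum was at most 0.0253 TPM. By library name, the same 3 libraries carry identifiers of number series 1 and the other 2 those of series 2, a split of unknown meaning. They also had 10.7% to 11.1% of TPM on mitochondrially encoded genes, against 6.23% and 6.30%. Both 1 h libraries are among those 3, so no comparison without them was possible. The values of series 1 alone (8 h replicate 14 against both 1 h libraries) are given beside the results of Hspa8, Hspa1b and Cirbp. Those of the other genes tested are in the closing section. Neural stem cell markers were at or above a mean of 1 TPM for 8 of 8 genes, with a summed 11254 to 11771 TPM at 1 h and 11255 to 14435 TPM at 8 h.

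The inducible HSP70 pair is shown first as sequence, since near-identical copies share reads. Hspa1a (chr17:34969190-34972156, minus strand) and Hspa1b (chr17:34956436-34959238, minus strand) are single-exon genes. Of the 100-base windows of the Hspa1a transcript, 47.1% occur letter for letter in Hspa1b. The 250 bases upstream of their starts (RefSeq, GRCm38.p6, chr17:34972157-34972406 and chr17:34959239-34959488) are 98.8% identical. They are shown from 5′ to 3′ on the minus strand, with the 3 positions that differ in capitals, because the near identity reaches beyond the transcripts.
Hspa1a: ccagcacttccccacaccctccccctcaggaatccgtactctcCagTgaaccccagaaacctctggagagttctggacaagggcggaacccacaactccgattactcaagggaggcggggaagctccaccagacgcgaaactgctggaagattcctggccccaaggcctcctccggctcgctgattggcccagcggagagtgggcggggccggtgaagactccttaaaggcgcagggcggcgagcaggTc
Hspa1b: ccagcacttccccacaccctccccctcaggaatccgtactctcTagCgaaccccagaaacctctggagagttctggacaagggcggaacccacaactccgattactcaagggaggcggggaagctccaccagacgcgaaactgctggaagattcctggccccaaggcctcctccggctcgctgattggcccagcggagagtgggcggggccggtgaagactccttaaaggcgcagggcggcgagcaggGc
Counted from the 5′ end of the window, the changes from Hspa1a to Hspa1b are C44T, T47C and T249G. Both windows hold 1 GAANNTTC, a head-to-head pair of heat shock repeats, with its first base 104 bases before the start. The 3 positions that differ lie outside it.

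The upstream windows of Hsph1 and Cirbp are shown because their groups did not overlap between the times and they stand for the heat and the cold branch. Capitals mark motif matches. Distances are from RefSeq starts. Each run stops 25 bases into the first untranslated exon that GENCODE vM21 places in the window, since the deposited gene covers part of the Hsph1 window and all of the Cirbp window. In Hsph1 (chr5:149636352-149636586, minus strand, RefSeq, GRCm38.p6) the capitals are TTCNNGAA, the tail-to-tail form of the heat shock repeat, with the first base 33 bases before the start. The deposited gene begins earlier, at 149636376 on this strand, so by its coordinates the capitals fall within the untranslated exon. In Cirbp (chr10:80167589-80167802, plus strand) they are TCCCCGCC, the letters of a mild cold response element described for this gene, with the first base 247 bases before the start. A second RefSeq window of Cirbp (chr10:80167921-80168170) held 0 matches.
Hsph1: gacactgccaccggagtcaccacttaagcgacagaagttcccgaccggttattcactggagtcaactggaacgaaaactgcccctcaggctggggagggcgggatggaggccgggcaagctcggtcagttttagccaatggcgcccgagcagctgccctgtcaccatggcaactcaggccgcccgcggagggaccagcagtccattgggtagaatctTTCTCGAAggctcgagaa
Cirbp: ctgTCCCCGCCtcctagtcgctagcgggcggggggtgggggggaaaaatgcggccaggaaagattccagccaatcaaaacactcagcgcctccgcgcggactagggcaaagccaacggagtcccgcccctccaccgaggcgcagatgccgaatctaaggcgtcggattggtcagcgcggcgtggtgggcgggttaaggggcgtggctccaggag
Upstream windows were at hand for 6 of 10 genes, with 9 windows in total. Of those 6 genes, 4 held GAANNTTC or TTCNNGAA (Hspa1a, Hspa1b, Hsph1 and Hspb1), and the near-identical Hspa1a and Hspa1b windows hold the same site. The shares that follow are per window and not per gene. Of all 32851 RefSeq windows of this length, 12.8% held either form, 6.69% GAANNTTC and 7.17% TTCNNGAA. TCCCCGCC on either strand was in 4.64% of them, among them also the Hspa1a and Hspa1b windows. Dnajb1 held none of the 3 motifs in these windows. The motifs were searched on both strands, the repeat pairs read the same on both, and the matches describe letters only.

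The levels of the 10 genes spanned more than 3 orders of magnitude. Hspa8, the constitutive HSP70, was the most abundant with a mean of 2713 TPM over 5 libraries, position 26 of all genes. Hsp90aa1 followed with 666.2 TPM, Rbm3 with 280.1, Hsph1 with 146.2, Cirbp with 58.2, Dnajb1 with 46.4 and Hsf1 with 33.7 TPM. At the low end stood Hspa1b with 2.02 TPM, Hspa1a with 1.32 TPM and Hspb1 with 0.549 TPM. The ranges of neighbours in this order overlapped for Cirbp with Dnajb1 and for Hspa1b with Hspa1a, and no other neighbours overlapped. The ratio of Hspa8, the constitutive relative, to the summed inducible pair was between 486.8 and 1316.

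**Figure D1:**
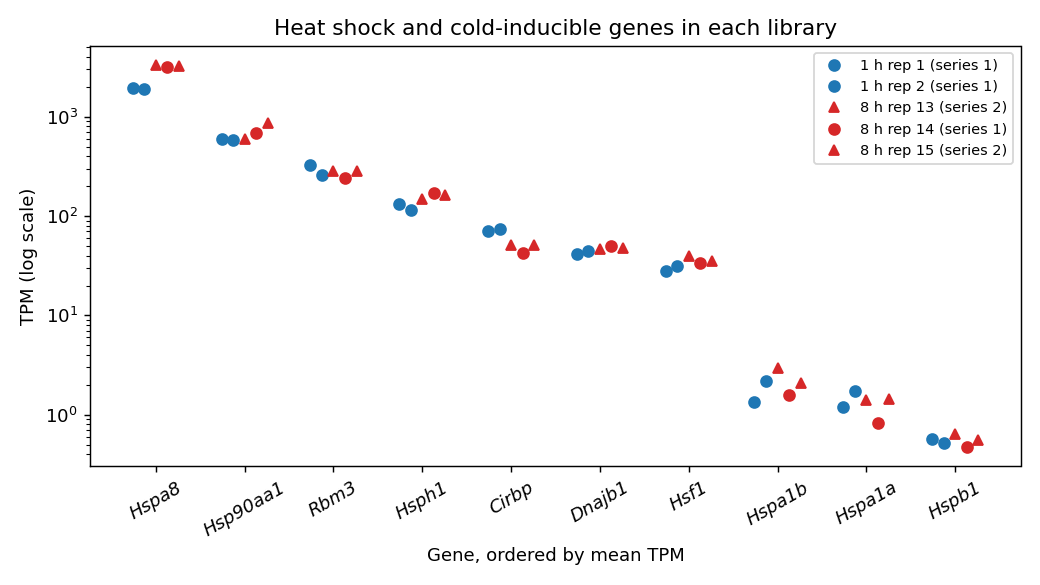
TPM (log axis) of each of the 10 genes, ordered by mean TPM, with 1 point for each of the 5 libraries coloured by time and shaped by identifier series. Hspa8 lies between 1902 and 3312 TPM, while Hspa1a, Hspa1b and Hspb1 lie below 3 TPM in every library.

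The question put to the time contrast was whether these genes differed between 8 h and 1 h after PBS. In the TPM tables, every 8 h library had more Hspa8 and less Cirbp than either 1 h library. Hsph1, Hsf1 and Dnajb1 were also higher in each 8 h library, by less, and Hspa1a, Hspa1b, Hspb1, Hsp90aa1 and Rbm3 overlapped between the times. In the count table Hspa8, Hsph1, Hsf1 and Dnajb1 overlapped between the times, as did Hsp90aa1 and Rbm3. Cirbp is not among the genes of that table used here. None of the 9 genes tested was called by limma (adjusted p up to 0.05 together with a log2 fold change beyond 1 in either direction), against 6 of 13870 genes (0.0433%). With no threshold on the fold, 0 of the 9 genes passed. At an unadjusted p under 0.05 there were 2 genes higher (Hspa8 and Hsph1), where 9.52% of all genes tested were, and 1 lower (Cirbp), where 2.82% were. Groups did not overlap for 4 genes higher at 8 h, against 23.7% of all genes, and for 1 lower, against 9.43%. The median log2 fold change of the 9 genes was 0.21, beside 0.10 for all genes. Hspb1 had a mean TPM below 1 and was not tested. In bulk RNA a smaller share of cells and less RNA per cell cannot be told apart.

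**Figure D2:**
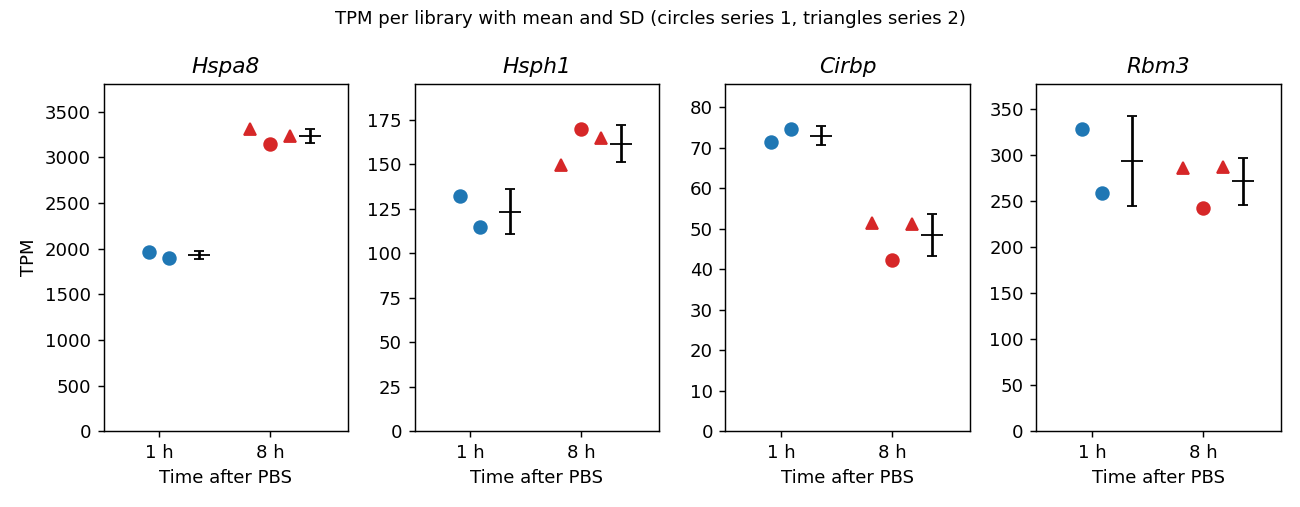
TPM of Hspa8, Hsph1, Cirbp and Rbm3 at 1 h (2 libraries) and 8 h (3 libraries), each axis starting at 0, with points per library (circles identifier series 1, triangles series 2) and bars for the mean and SD. The groups are apart for Hspa8, Hsph1 and Cirbp and overlap for Rbm3.

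HSF1 is the master factor of the response, and its RNA was present at moderate levels. Hsf1 (chr15:76477445-76500972, plus strand) was at 27.8 and 31.4 TPM at 1 h and at 40.0, 33.8 and 35.4 TPM at 8 h in replicates 13, 14 and 15. All 8 h libraries were above both 1 h libraries, with the lowest 8 h value close to the highest at 1 h. The means were 29.6 ± 2.53 (SD, n = 2) and 36.4 ± 3.24 TPM (SD, n = 3). The log2 fold change on log2(TPM + 1) was 0.29 ± 0.12 (SE, adjusted p = 0.406 by limma), or 0.19 against the median over all genes. In the count table the times overlapped for Hsf1, with a log2 fold change of 0.12.

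HSC70, the product of Hspa8 (chr9:40800984-40805200, plus strand), folds new proteins and uncoats clathrin vesicles in unstressed cells. Hspa8 was at 1961 and 1902 TPM at 1 h, and at 3312, 3151 and 3241 TPM at 8 h. The 8 h values lay within a narrow band far above the 1 h values in these tables, replicate 14 included. In the count table the column named 8 h replicate 14 was instead the lowest of all 5, at 2858 CPM (counts scaled to the column total). The log2 fold change within series 1 was -0.20 there. That column matched the TPM table of its name for only 26.5% of genes, as described below, so the 2 may not be the same library. The means were 1931 ± 42.0 (SD, n = 2) and 3235 ± 80.9 TPM (SD, n = 3), and the second was 1.67 times the first. The log2 fold change was 0.74 ± 0.10 (SE, adjusted p = 0.214 by limma), or 0.64 against the median over all genes. Within series 1 it was 0.71 in the TPM tables. Without 8 h replicate 14 it was 0.76 with a limma adjusted p of 0.00334. In that last fit time and identifier series split the libraries in the same way, and 568 of 13870 genes were called. Of the 100-base windows of the Hspa8 transcript, 31.6% occur in other genes, mostly in Gm15459 (28.9%), so reads could be split among these copies.

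The inducible HSP70 genes, the classic readout of heat shock, stayed near the lower limit of the test. Hspa1a was at 1.19 and 1.74 TPM at 1 h and at 1.42, 0.822 and 1.43 TPM at 8 h. Hspa1b was at 1.35 and 2.17 TPM at 1 h and at 2.95, 1.57 and 2.07 TPM at 8 h. For both genes the times overlapped, and the highest and lowest libraries of a group differed by more than the group means. Their log2 fold changes had opposite signs, -0.15 ± 0.23 for Hspa1a and 0.21 ± 0.26 for Hspa1b (SE, adjusted p = 0.758 and 0.699 by limma). Since the pair shares sequence, it was also summed, which gave 2.54 and 3.91 TPM at 1 h and 4.37, 2.39 and 3.51 TPM at 8 h. The sum had a log2 fold change of 0.062 ± 0.26 (SE, adjusted p = 0.916 by limma). The sign of Hspa1b turned within series 1 (-0.084) and without 1 h replicate 1 (-0.0084), and that of Hspa1a without 1 h replicate 2 (0.011).

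HSP110, the product of Hsph1 (chr5:149614287-149636376, minus strand), is the nucleotide exchange factor of HSP70. Hsph1 was at 132.3 and 114.5 TPM at 1 h and at 149.7, 169.8 and 164.9 TPM at 8 h. In the TPM tables every 8 h library was above both 1 h libraries, and replicate 14 was the highest of all. In the count table the times overlapped, and the column named 8 h replicate 14 was the lowest of all, at 263.4 CPM. As for Hspa8, that column and the TPM table of its name may not be the same library. The means were 123.4 ± 12.5 (SD, n = 2) and 161.5 ± 10.5 TPM (SD, n = 3), and the log2 fold change was 0.39 ± 0.11 (SE, adjusted p = 0.328 by limma), or 0.28 against the median over all genes.

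Dnajb1 (chr8:83608175-83611902, plus strand) encodes HSP40, the J-domain partner of HSP70. It was at 41.5 and 44.9 TPM at 1 h and at 47.0, 50.4 and 48.2 TPM at 8 h. The groups did not overlap, yet they were separated by less than the spread within 1 h. The log2 fold change was 0.17 ± 0.099 (SE, adjusted p = 0.477 by limma), of which 0.064 was left against the median over all genes. In the count table the times overlapped for Dnajb1, with a log2 fold change of 0.045.

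Hsp90aa1 (chr12:110690605-110702728, minus strand) encodes the inducible form of cytosolic HSP90. It was at 597.0 and 587.8 TPM at 1 h and at 595.3, 690.7 and 860.1 TPM at 8 h. Replicate 15 was the highest and replicate 13 lay between the 1 h libraries, so the groups overlapped and the 8 h libraries spread far more than those at 1 h. The means were 592.4 ± 6.49 (SD, n = 2) and 715.4 ± 134.1 TPM (SD, n = 3), with a log2 fold change of 0.26 ± 0.16 (SE, adjusted p = 0.497 by limma). It was 0.11 without 8 h replicate 15. Of its 100-base windows, 47.5% occur in other genes, mostly in Gm12346 (39.6%).

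Hspb1 (chr5:135887919-135889563, plus strand) encodes the small heat shock protein HSP25, abundant in stressed and muscle cells. It was at 0.565 and 0.516 TPM at 1 h and at 0.634, 0.475 and 0.557 TPM at 8 h. The groups overlapped at this low level, with a mean coverage per base between 1.16 and 1.67. The gene shares 42.7% of its 100-base windows with Hsp25-ps1.

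Summed over the 7 chaperone genes, TPM was 2735 and 2653 at 1 h and 4109, 4065 and 4318 at 8 h. Most of this sum was Hspa8, with 71.7% in each 1 h library and 80.6%, 77.5% and 75.1% in the 8 h libraries. The share of Hsp90aa1 was 21.8% and 22.2% at 1 h and 14.5%, 17.0% and 19.9% at 8 h.

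Of the cold-inducible genes, Cirbp was apart between the times and Rbm3 overlapped, and the difference between them was not tested. CIRBP was first described as a protein raised by mild cold that slows cell growth. Cirbp (chr10:80165985-80172786, plus strand) was at 71.3 and 74.6 TPM at 1 h and at 51.4, 42.4 and 51.2 TPM at 8 h. All 8 h libraries were well below both 1 h libraries, and replicate 14 was the lowest. The means were 72.9 ± 2.32 (SD, n = 2) and 48.3 ± 5.18 TPM (SD, n = 3), and the 8 h mean was 0.663 times that at 1 h. The log2 fold change was -0.59 ± 0.12 (SE, adjusted p = 0.267 by limma), or -0.69 against the median over all genes. Within series 1 it was -0.77, and without 8 h replicate 14 it was -0.50 with a limma adjusted p of 0.0173. In that last fit time and identifier series split the libraries in the same way, and 568 of 13870 genes were called.

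Rbm3 (chrX:8138975-8145880, minus strand) was at 327.9 and 258.6 TPM at 1 h and at 285.4, 242.0 and 286.7 TPM at 8 h. The highest value was that of 1 h replicate 1 and the lowest that of 8 h replicate 14, and the groups overlapped. The means were 293.2 ± 49.0 (SD, n = 2) and 271.3 ± 25.4 TPM (SD, n = 3), with a log2 fold change of -0.11 ± 0.14 (SE, adjusted p = 0.723 by limma), which turned to 0.065 without 1 h replicate 1. Rbm3 lies on the X chromosome. Its levels in 8 h replicates 13 and 15, the libraries with Xist, were between those of the 1 h libraries. They were above that of 8 h replicate 14, the 8 h library with Y-linked RNA. A part of the sex of the cells in these levels was not tested. The ratio of Rbm3 to Cirbp was 4.60 and 3.47 at 1 h and 5.55, 5.71 and 5.60 at 8 h. The ratio of Hspa8 to Cirbp was 27.5 and 25.5 at 1 h and 64.4, 74.4 and 63.3 at 8 h. These are the genes with the largest differences in opposite directions, so the separation of this ratio was fixed by their choice.

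Cirbp had the widest range over the libraries of all 10 genes on the log2(TPM + 1) scale. Among 9478 other genes with a mean of at least 10 TPM, those with the most similar centred profile over the 5 libraries were Zbtb5, Rexo1 and Pip5k1c, with root mean square differences of 0.075, 0.078 and 0.082 on the log2 scale. Zbtb5, for example, was at 20.5 and 22.0 TPM at 1 h and at 13.3, 12.5 and 13.5 TPM at 8 h. These profiles were picked for their likeness and carry no test.

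The count table used here lists 6 of the 10 genes (Hsf1, Hspa8, Hsp90aa1, Hsph1, Dnajb1 and Rbm3). Its column names did not match the TPM tables of the same name for the 8 h libraries. For 6860 genes with at least 100 counts, the ratio of counts to TPM, set by the pair named 1 h replicate 2, lay within 0.1 log2 units for 78.0% of genes in 1 h replicate 1. The column named 8 h replicate 13 did so for 25.6% of genes with its own table and for 77.5% with the table of replicate 14. The column named replicate 15 reached 42.2% with its own table and 77.8% with that of replicate 13. The column named replicate 14 reached 26.5% with its own table and at most 43.4%, with the table of 1 h replicate 2. Which of the 2 files carries the right names cannot be told apart here, and the columns were kept under their names. The identifier series of the 8 h TPM tables were assigned by the same names, so they are equally undecided.

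For Hspa8, counts and TPM differed. Its counts were 46681 and 50552 in the 1 h columns and 91426, 41371 and 91911 in the columns named 8 h replicates 13, 14 and 15. As CPM, counts scaled to the column total with no regard to gene length, these were 3337 and 3059 at 1 h and 5073, 2858 and 4949 CPM at 8 h. The columns named replicates 13 and 15 were above both 1 h columns. These 2 matched the TPM tables of replicates 14 and 13 for 77.5% and 77.8% of genes. The column named replicate 14 was the lowest of all 5, whereas the TPM table of that name was far above both 1 h tables. That column matched no TPM table for more than 43.4% of genes. The log2 fold change was 0.40 ± 0.26 (SE, adjusted p = 0.966 by edgeR), and without that column it was 0.63 ± 0.11 (adjusted p = 0.746). Within series 1, where that column is the 1 at 8 h, it was -0.20.

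**Figure D3:**
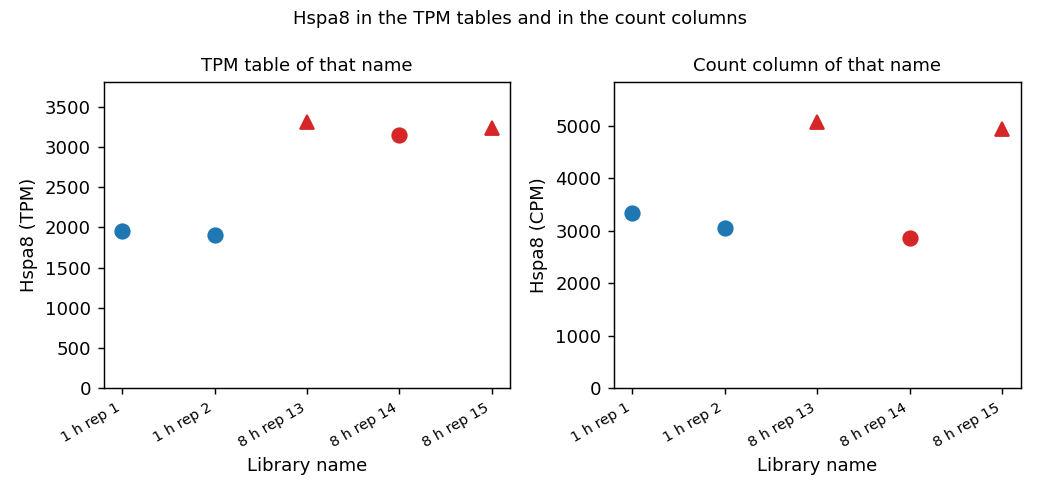
Hspa8 in the TPM table (left, TPM) and in the count column (right, CPM) of each library name. Both axes start at 0, with 1 point for each of the 5 names, coloured by time and shaped by identifier series. The point named 8 h replicate 14 is 3151 TPM on the left and, at 2858 CPM, the lowest on the right.

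Hsph1 had 331.6 and 279.2 CPM at 1 h and 404.6, 263.4 and 329.1 CPM at 8 h, again with the column named replicate 14 at the bottom. Its log2 fold change was 0.097 ± 0.20 (SE, adjusted p = 0.972 by edgeR), and 0.25 ± 0.16 without that column. Hsp90aa1 (1411 to 1701 CPM), Dnajb1 (66.4 to 80.9 CPM), Rbm3 (220.3 to 264.5 CPM) and Hsf1 (48.3 to 62.0 CPM) also overlapped between the times, with log2 fold changes between -0.064 and 0.12. That of Hsf1 ranged from 0.040 without 1 h replicate 1 to 0.21 without 1 h replicate 2. None of the 6 genes was called by edgeR or DESeq2, and 0 of 7590 genes tested by edgeR were called (0%). At an unadjusted edgeR p under 0.05 there were 199 genes (2.62%), and 227 by DESeq2, with 0 of the 6 genes among them by either tool. Without the column named replicate 14, 478 of 7584 genes tested by edgeR had such a p, among them 1 of the 6, Hspa8.

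**Figure D4:**
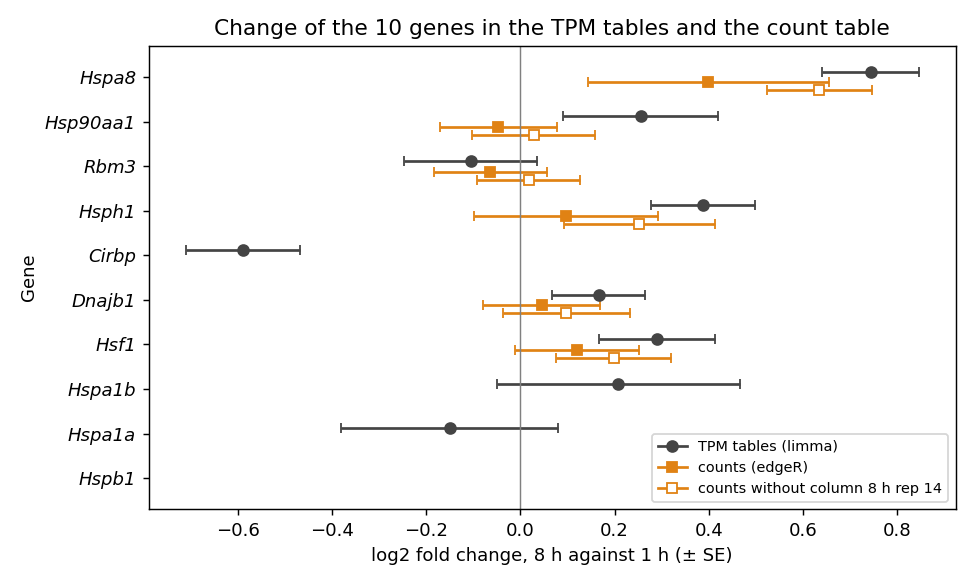
Log2 fold change of 8 h against 1 h with its SE for the 10 genes, from the TPM tables (circles, limma), the count table (filled squares, edgeR) and the count table without the column named 8 h replicate 14 (open squares). Hspa8 is at 0.74, 0.40 and 0.63, Cirbp is at -0.59 in the TPM tables alone, Hspa1a and Hspa1b have no squares, and Hspb1 has no point because it was not tested.

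The wider chaperone network was described with 9 lists of 68 genes, of which 60 had a mean of at least 1 TPM. None of the 60 was called by limma. At an unadjusted p under 0.05 there were 7 genes higher and 1 lower at 8 h, where 9.52% and 2.82% of all genes tested were. Groups did not overlap for 19 higher and 4 lower, against 23.7% and 9.43% of all genes. The median log2 fold change of the 60 genes was 0.091, beside 0.10 for all genes.

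Of the constitutive HSP90 gene and its co-chaperones, 9 of 9 were tested. An unadjusted p under 0.05 was reached by 2, both higher (9.52% of all genes), and the median log2 fold change was 0.18, beside 0.10 for all genes. Chordc1, a co-chaperone with a CHORD domain, was at 43.9 and 36.2 TPM at 1 h and at 62.3, 64.1 and 66.6 TPM at 8 h, a log2 fold change of 0.68 ± 0.12 (SE, adjusted p = 0.243 by limma). In the TPM tables it was higher in each 8 h library, replicate 14 included. Fkbp4 and Ptges3, which join HSP90 on steroid receptors, had log2 fold changes of 0.25 and 0.21 (limma adjusted p of Fkbp4 = 0.402). Hsp90ab1, the constitutive HSP90, had a mean of 2280 TPM and a log2 fold change of 0.044, with overlapping groups.

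In the list of other cytosolic HSP70 and HSP110 genes 4 of 5 were tested, 0 had an unadjusted p under 0.05, and the median was 0.18. Its largest log2 fold changes were 0.22 for Hspa14, 0.19 for Hspa4l and 0.17 for Hspa4. The mitochondrial chaperones had 2 of 5 genes at an unadjusted p under 0.05, both higher (9.52% of all genes), and a median of 0.27, beside 0.10 for all genes. Dnaja3, a mitochondrial J-domain protein, was at 46.5 and 46.0 TPM at 1 h and at 72.7, 56.5 and 71.4 TPM at 8 h, with the series 2 libraries on top. Its log2 fold change was 0.51 ± 0.14 (SE, adjusted p = 0.309 by limma). Hspd1, the mitochondrial chaperonin HSP60, had 0.31 and Hspa9, the mitochondrial HSP70, had 0.27.

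The J-domain list had 1 of 8 genes, a higher one, at an unadjusted p under 0.05 (9.52% of all genes) and a median log2 fold change of 0.097. That gene was Dnajb5, at 52.2 and 52.7 TPM at 1 h and at 75.1, 60.4 and 69.1 TPM at 8 h (log2 fold change 0.37 ± 0.12 SE, limma adjusted p = 0.369). Dnajb4 had the largest difference, -0.70 ± 0.31 (SE, adjusted p = 0.414 by limma), with 1 h replicate 1 at 33.7 TPM and the other 4 libraries at 12.8 to 15.4 TPM. Dnajb2 had a log2 fold change of 0.28. The chaperonin and prefoldin subunits, which fold actin and tubulin, had 0 of 14 genes at that p and a median of 0.097. Their largest values were 0.42 for Pfdn4, 0.31 for Cct6a and 0.16 for Vbp1.

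Lists with a median below 0 were the factors related to HSF1 (-0.065, 2 of 4 tested, Hsf2 and Hsbp1), the nucleotide exchange and degradation co-chaperones (-0.068, 6 of 6 tested) and the small heat shock proteins (-0.27, 4 of 7 tested). None of their genes had an unadjusted p under 0.05. Bag3, which links HSP70 to autophagy and is a classic HSF1 target, was at 32.0 and 31.9 TPM at 1 h and at 22.8, 31.4 and 22.9 TPM at 8 h. Replicate 14 was close to the 1 h libraries and the series 2 libraries were lower (log2 fold change -0.32, limma adjusted p = 0.448). Bag5 had 0.15 and Bag1 -0.096. Hspb8, the partner of BAG3, had -0.35, Cryab -0.28 and Hspb6 -0.25.

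The cold-linked RNA-binding genes had 8 of 10 tested, with 2 higher and 1 lower at an unadjusted p under 0.05 (9.52% and 2.82% of all genes), and a median log2 fold change of 0.11. Srsf5, a splicing factor, was at 373.9 and 326.2 TPM at 1 h and at 178.8, 218.0 and 166.5 TPM at 8 h. All 8 h libraries were below both 1 h libraries, as for Cirbp, with a log2 fold change of -0.90 ± 0.14 (SE, adjusted p = 0.240 by limma). Ybx3, a cold shock domain protein, and Rbmx, an RNA-binding protein of the spliceosome, had 0.50 and 0.42 (limma adjusted p = 0.315 and 0.371). Lin28a was at 0 in all libraries.

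**Figure D5:**
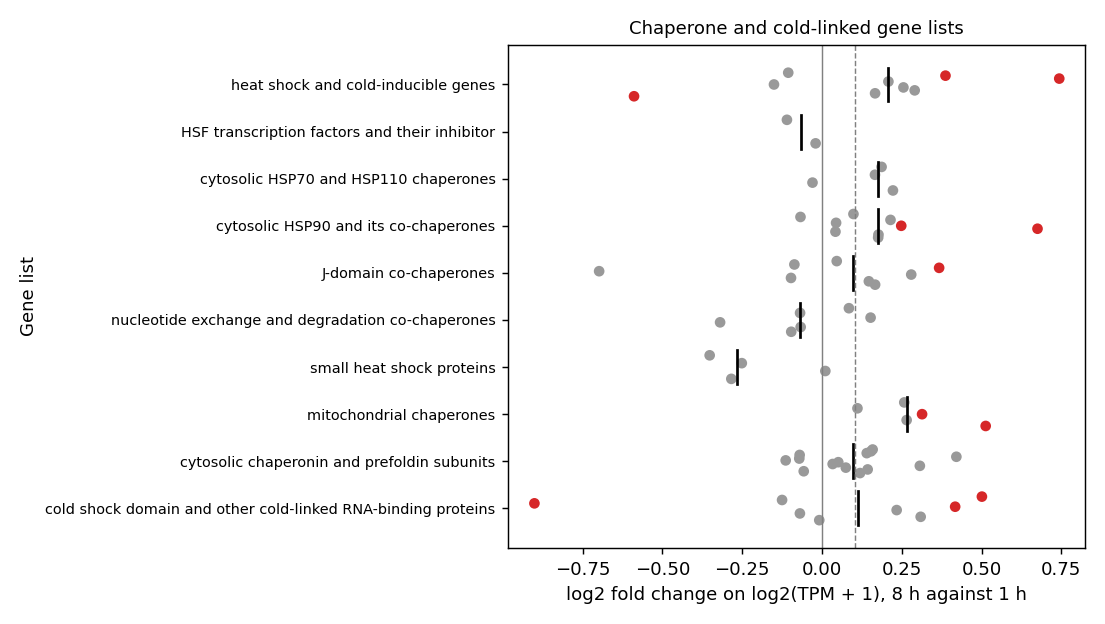
Log2 fold change of 8 h against 1 h on log2(TPM + 1) for each gene tested (points) in the 10 genes described and the 9 chaperone and cold-linked lists, with red points at an unadjusted p under 0.05, black bars at list medians and a dashed line at the median of all genes (0.10). Hspa8 at 0.74 and Srsf5 at -0.90 mark the ends among the red points.

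Markers of other cell types were compared between the times beside these results. Microglia markers had 0 of 6 genes at a mean of 1 TPM, with Aif1 and Tmem119 at 0, and summed to 1.31 to 1.49 TPM at 1 h and 0.478 to 0.740 TPM at 8 h. Endothelial markers had 2 of 5, with Cdh5 and Cldn5 at 0, and ependymal markers 1 of 4, with Tmem212 at 0. Their sums were 12.1 to 15.4 and 23.7 to 27.5 TPM at 1 h, and 11.8 to 14.3 and 16.3 to 18.8 TPM at 8 h. Oligodendrocyte lineage markers had 6 of 7 and summed to 1857 to 2248 TPM at 1 h and 1613 to 2442 TPM at 8 h. Neuron markers had 5 of 5 and summed to 270.3 to 275.9 TPM at 1 h and 212.8 to 459.6 TPM at 8 h. The ependymal and microglial sums were lower at 8 h in every library. Most of each sum was 1 gene, Foxj1 at 14.4 to 26.7 TPM and P2ry12 at 0.411 to 1.41 TPM. Rsph1, another ependymal marker, was at 0.614 and 0.571 TPM at 1 h and at 1.22, 0.545 and 1.68 TPM at 8 h. The part of these cell types in the differences of Hspa8 and Cirbp was not tested.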

How the data were processed

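Poly-A selected, stranded RNA-seq libraries were read from both ends. The authors aligned reads to GRCm38 with STAR through nf-core/rnaseq and counted them with featureCounts, and the labels also name bcl2fastq 2.19.1.403, CASAVA and DESeq2. The deposited counts are whole numbers per gene, not normalized, in a table that lists 7599 genes, which held 51.3% to 56.7% of TPM, so its totals are not the full depth. Per library, the authors also deposited TPM, FPKM and mean coverage per gene. For these, tool and version were not given in the sources used here. Rows of 1 gene identifier were summed (15 to 20 further rows per table), and deposited coverage and FPKM served only for depth and for the coverage of Hspb1.

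Genes averaging at least 1 TPM were tested on log2(TPM + 1) with limma 3.58.1 and an intensity trend in R 4.3.3. This scale understates the change of low genes. Counts were tested with edgeR's quasi-likelihood test (edgeR 4.0.16), TMM and filterByExpr, with DESeq2 1.42.0 as an alternative. All p-values are two-sided, and adjusted p-values are Benjamini-Hochberg values over all genes tested. Calls needed an adjusted p up to 0.05 together with a log2 fold change beyond 1 in either direction. SDs are between libraries and SEs come from the fits. Coordinates are those of the deposited tables. Shared sequence was measured on the longest GENCODE vM21 transcript of each gene, in windows of 100 bases. Both fits were tested on simulated data. Alternatives were other pseudocounts, filters and scalings, TPM without mitochondrially encoded genes, the identifier series as a term or series 1 alone, the summed Hspa1 pair, and leaving out each library.

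The members and lists were chosen with earlier results of these data known. Genes named are the 10 members, up to 3 genes per list with the largest absolute log2 fold change, and the 3 genes nearest to the member with the widest range. Hsp90ab1, Lin28a, the marker genes at 0, Foxj1, P2ry12 and Rsph1 were named after their values were seen. Libraries exposed to hydrogen peroxide were not analysed here.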

Additional observations from a re-analysis of the deposited data

How the results depend on the processing

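No paired analysis was possible because the groups share no replicate number. None of the 10 genes was called in either table under any alternative that tested it. The TPM alternatives tested 8 to 10 of them, and those of the count table tested 6. In the TPM tables, 110 of 115 recomputed log2 fold changes kept their direction, and the others were of Hspa1a, Hspa1b and Rbm3. The number of genes called there, 6, became 0 with no filter on low values and 19 with the identifier series as a term, and leaving out 1 library gave 0 to 568. The 568 came without 8 h replicate 14, when time and identifier series split the libraries in the same way. Median-ratio scaling moved the median of all genes by -0.10 (log2), with Hspa8 at 0.64, Hsph1 at 0.28 and Cirbp at -0.70. Hspa8 ranged from 0.64 to 0.77 over all alternatives (adjusted p 0.00334 to 0.794), and Cirbp from -0.77 to -0.50 (adjusted p 0.0173 to 0.794). Hspa1b became -0.084 with the series term and in series 1 alone. The other log2 fold changes in series 1 alone were 0.19 for Hsf1, 0.46 for Hsph1 and 0.22 for Dnajb1. They were 0.22 for Hsp90aa1, -0.43 for Hspa1a and -0.27 for Rbm3. Leaving out 1 library gave -0.31 to 0.011 for Hspa1a, -0.0084 to 0.42 for Hspa1b, -0.28 to 0.065 for Rbm3 and 0.11 to 0.38 for Hsp90aa1.

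In the count table, 145 genes were called in series 1 alone, against 0 in all 5 columns. With the series term and in series 1 alone, both of which rest on the column named 8 h replicate 14, log2 fold changes became -0.031 and -0.032 for Hsf1, -0.20 in both for Hspa8, -0.25 in both for Hsph1, and -0.044 and -0.045 for Dnajb1. Leaving out 1 column gave 0.040 to 0.21 for Hsf1, -0.16 to 0.083 for Hsp90aa1, -0.073 to 0.25 for Hsph1, -0.036 to 0.12 for Dnajb1 and -0.14 to 0.019 for Rbm3. The cause of these changes was not tested.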
